A study of Arabidopsis thaliana with 6 samples.

Results

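Mitochondrially encoded genes were examined in Arabidopsis suspension cells: 18 genes, of 16550 genes that have a row of their own on the array. A gene was taken when a row of the array named it alone and a current RefSeq gene table places a gene of that symbol or synonym on the mitochondrial genome. Where several rows named 1 gene, the row with the highest mean over all 6 arrays stood for it. Of the 18 genes 13 matched by symbol and 5 by a synonym (ccb206 for ccmB, ccb452 for ccmFC, ccb382 for ccmFN1, ccb203 for ccmFN2 and orfX for mttB). Rows for rps14, rps4, rpl16 and rps19 bear the gene identifiers of the plastid genes of those names, so all 4 were left out. The label holds for the 18 genes by their names, and no unnamed open reading frame of the mitochondrial genome is among them, because none of the row names used here is a locus code beginning ATMG.

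The cells, a culture called Alex, carry a fusion of the transcription factor ATHB8 with green fluorescent protein (GFP) that estrogen induces, and were kept on a shaker without light. Cells of the induced group (3 arrays) received 5 µM estrogen and were collected 24 h later. The uninduced group (3 arrays) is the same line, kept for the same time without estrogen. The study asked which genes act downstream of ATHB8. Both groups carry the transgene, and no line without it that received estrogen is among the samples, so an effect of estrogen itself and one of the fusion cannot be told apart. The labels leave unsaid whether the replicates are separate cultures or transformed lines, so p-values speak only of the spread between these arrays, and that spread may be technical. A suspension culture has no defining marker gene. Of 17 nuclear photosynthesis genes listed as a check of the dark-grown label, LHCB4.1, a light-harvesting protein, was measured under its name, at a mean log2 signal of 4.58 (percentile 35.7 of all rows). Its induced minus uninduced difference was 0.44 ± 0.18 in limma (SE; adjusted p = 0.582).

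The plant mitochondrial genome encodes core subunits of the respiratory chain and of ATP synthase, part of the mitochondrial ribosome, proteins that attach heme to cytochrome c, an intron maturase and a membrane transport protein. Its transcripts are made by phage-type RNA polymerases encoded in the nucleus, and are then spliced, edited from C to U and trimmed by nuclear-encoded proteins. The transcripts of nad1, nad2 and nad5 are joined by trans-splicing from pieces that are transcribed separately. Chromosome 2 of Arabidopsis also holds a large insertion of mitochondrial DNA, so that some mitochondrial genes have near-identical nuclear copies, and a row can be reached by RNA of either.

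The 18 genes gave high signals in both groups and differed little between them. Their mean log2 signals over the 6 arrays lay between 11.11 and 13.39, at percentiles 96.3 to 99.9 of all 38408 rows, on arrays whose highest signals were 14.02 to 14.14. Rows differ in how strongly their probes bind, so the genes' levels were not ranked against each other. Induced minus uninduced, the differences ran from -0.08 (nad1) to 0.12 (cox2) on the log2 scale, with a median of 0.03 against -0.01 over all rows. Of the 18 genes 17 differed by less than 0.1, as did 42.4% of all rows and 65.3% of the rows in the highest decile of signal. Among the 1376 rows in the same range of mean signal as the 18 genes, 76.6% did. In the induced arrays 15 of the 18 genes lay higher and 3 lower, against 18551 higher and 19857 lower of all rows. The split of the 18 genes was 11 to 7 after quantile normalization and 12 to 6 after subtraction of each array's median. It was 8 to 10 without induced replicate 2, 9 to 9 without uninduced replicate 1 and 11 to 7 without uninduced replicate 3. In limma, with Benjamini-Hochberg adjustment over all rows, 0 of 18 passed an adjusted p of 0.05, where 0.961% of all rows passed. Of all rows 0.633% rose and 0.328% fell. Blocking on the replicate number also left 0 of 18 past the threshold, against 0.63% of all rows. At an unadjusted p under 0.05 the count was also 0 of 18, against 8.48% of all rows.

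**Figure D1:**
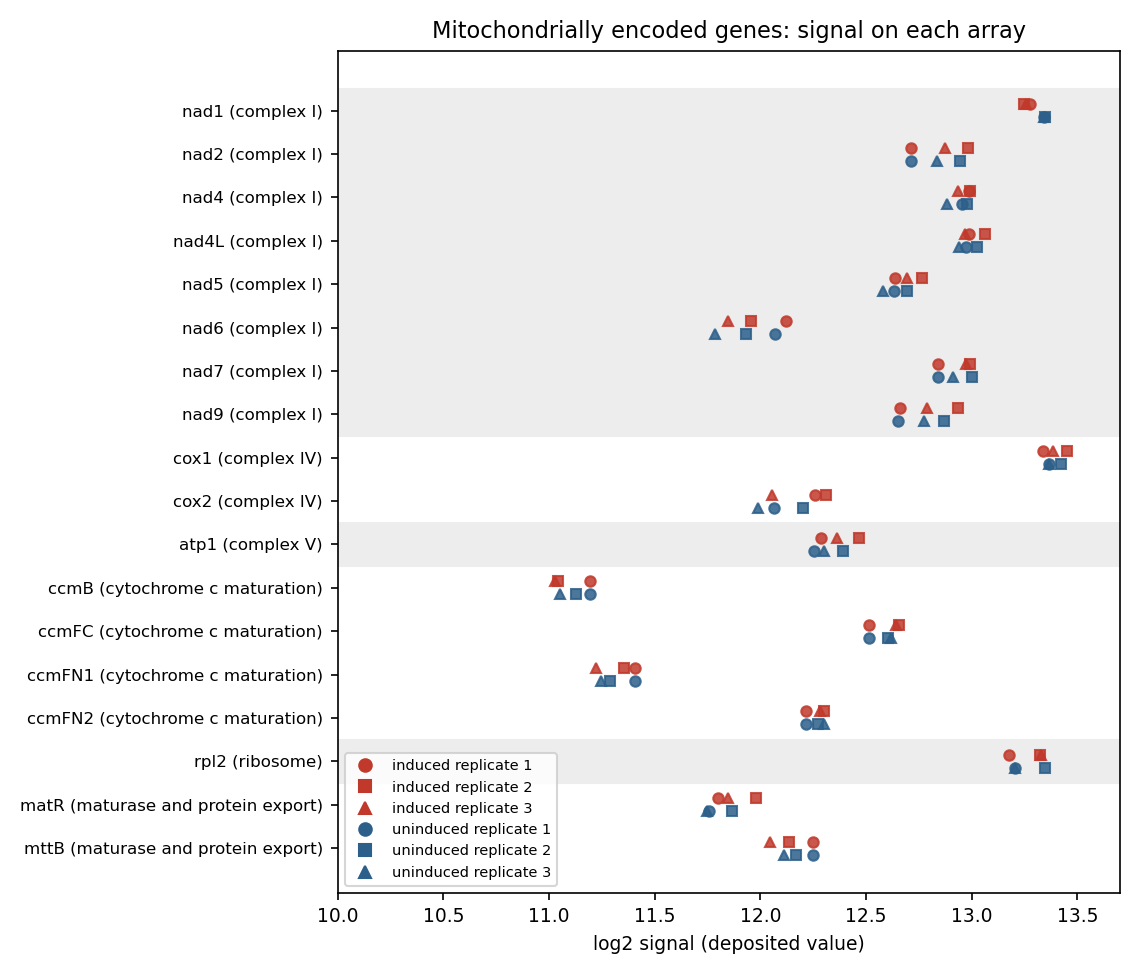
Log2 signal (x axis, the deposited value) of each of the 18 mitochondrially encoded genes on each array. Red marks are the 3 induced and blue marks the 3 uninduced arrays, with a circle, square or triangle for replicate 1, 2 or 3, and bands group the genes by function. In 17 genes the red and blue marks overlap, and in nad1 all red marks lie below all blue marks.

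Complex I, the NADH dehydrogenase through which electrons enter the respiratory chain, had 8 genes with a row of their own, of which 7 lay higher and 1 lower, with a median difference of 0.03. The genes encode hydrophobic subunits of the membrane arm (nad1, nad2, nad4, nad4L, nad5 and nad6) and subunits of the peripheral arm (nad7 and nad9). The log2 signals of nad1 were 13.28, 13.24 and 13.26 in induced replicates 1, 2 and 3 and 13.34, 13.35 and 13.34 in the uninduced ones. Each induced array was below every uninduced array, and both groups were tight (SD 0.016 and 0.0033, n = 3 per group). Its difference was -0.08 ± 0.09 (limma SE; adjusted p = 0.99996), and the SE, which limma sets partly from the spread of all rows, is larger than that of the gene's own values. Groups that do not overlap were found in 12.2% of all rows (5.82% with the induced higher and 6.43% with them lower), and in 1 of the 18 genes.

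The remaining membrane arm genes overlapped between the groups. The signals of nad2 were 12.71, 12.98 and 12.87 with estrogen and 12.71, 12.95 and 12.84 without it. Those of nad4 were 12.99, 12.99 and 12.94 against 12.95, 12.98 and 12.88. Each array of nad4 was higher with estrogen than the same-numbered array without it, by 0.02 to 0.05. The gene nad4L gave 12.99, 13.06 and 12.97 against 12.97, 13.03 and 12.94, and nad5 gave 12.64, 12.76 and 12.69 against 12.63, 12.70 and 12.58. In nad6 the signals were 12.12, 11.96 and 11.85 against 12.07, 11.93 and 11.78. Both nad6 groups ran over a wider range than they differed, with the replicate 1 arrays highest in each. The limma differences of nad2, nad4, nad4L, nad5 and nad6 were 0.02 ± 0.12, 0.03 ± 0.10, 0.03 ± 0.10, 0.06 ± 0.10 and 0.05 ± 0.13 (SE, n = 3 per group).

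In the peripheral arm, nad7 gave 12.84, 12.99 and 12.97 in the induced and 12.84, 12.9993 and 12.91 in the uninduced arrays. For nad9 the values were 12.66, 12.94 and 12.79 against 12.65, 12.87 and 12.77. Replicate 1 was the lowest array of both groups in both genes, and the groups overlapped. Their differences were 0.02 ± 0.11 and 0.03 ± 0.12 (limma SE).

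Complex IV, cytochrome c oxidase, passes electrons to oxygen, and its core subunits 1 and 2 are encoded by cox1 and cox2. The signals of cox1, the subunit that holds the heme and copper centre where oxygen is reduced, were 13.34, 13.45 and 13.38 with estrogen and 13.36, 13.42 and 13.37 without it, a difference of 0.01 ± 0.10. Those of cox2, the subunit that receives electrons from cytochrome c, were 12.26, 12.31 and 12.06 against 12.06, 12.20 and 11.99. The induced array of cox2 was higher in each same-numbered pair, by 0.19, 0.11 and 0.07, but the groups overlapped and the difference of 0.12 ± 0.12 did not pass (limma SE; adjusted p = 0.99996). Another row names cox2 together with AT2G07695, a locus within the chromosome 2 insertion, and gave a difference of 0.04 ± 0.10. The row that names AT2G07695 alone gave 0.0020 ± 0.20, at a mean signal of 7.50.

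ATP synthase, complex V, was represented by atp1, the alpha subunit of its catalytic head. The signals were 12.29, 12.47 and 12.36 in the induced and 12.25, 12.39 and 12.30 in the uninduced arrays. Each pair was higher with estrogen, by 0.03 to 0.08, while the values within a group spanned more than that, and the difference was 0.06 ± 0.11 (limma SE). Complex III has 1 mitochondrially encoded subunit, cytochrome b, and its gene cob was named only together with nuclear loci.

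The genes of cytochrome c maturation encode parts of the pathway that exports heme (ccmB) and ligates it to cytochrome c (ccmFC, ccmFN1 and ccmFN2). Of these 4 genes 3 lay higher and 1 lower, with a median of 0.01 that was -0.0060 after median subtraction, and in all 4 genes the induced and uninduced replicate 1 values were identical. The signals of ccmB were 11.19, 11.04 and 11.03 against 11.19, 11.13 and 11.05, and those of ccmFC were 12.51, 12.66 and 12.64 against 12.51, 12.60 and 12.62. The values of ccmFN1 were 11.41, 11.35 and 11.22 against 11.41, 11.29 and 11.24, and those of ccmFN2 were 12.22, 12.30 and 12.28 against 12.22, 12.27 and 12.30. The groups overlapped in each gene, replicate 1 being the highest array of ccmB and ccmFN1 and the lowest of ccmFC and ccmFN2. The differences were -0.04 ± 0.11, 0.03 ± 0.10, 0.01 ± 0.11 and 0.0039 ± 0.10 (limma SE). The row of ccmFN2 shares all 6 values with 1 other row, which bears no gene name.

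The ribosomal protein gene rpl2, of the large subunit, gave 13.17, 13.32 and 13.33 against 13.20, 13.35 and 13.20, a difference of 0.02 ± 0.11. Pairs 1 and 2 were lower with estrogen and pair 3 was higher by 0.12. The maturase gene matR, which lies in an intron of nad1 and encodes a splicing factor, gave 11.80, 11.98 and 11.85 against 11.76, 11.87 and 11.75. It was higher in each pair, with overlapping groups, and differed by 0.08 ± 0.11 (limma SE; adjusted p = 0.99996). For mttB, a membrane protein related to the TatC translocase, the signals were 12.25, 12.14 and 12.05 against 12.25, 12.17 and 12.11, a difference of -0.03 ± 0.11.

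The intervals bound how far the chosen row of each gene could have moved on this scale. The 95% intervals from limma, not adjusted for the number of genes, reached at most a 1.34-fold rise (cox2) and at most a fall to 0.806-fold (nad1). Within the residual spread of the 3 arrays per group, larger folds lay outside the interval of each of the 18 chosen rows. Other rows of the same gene were less bounded: the intervals of the other 6 rows of nad1 reached down to 0.773-fold and up to 1.45-fold. The residual SD of the 18 genes had a median of 0.08, against 0.22 over all rows and 0.11 over the rows in the highest decile of signal. Whether differences between bright rows are compressed was not tested. Of the 1376 rows whose mean lay in the same range of signal as the 18 genes, 3 rose and 3 fell past the threshold, and the differences of the 1376 rows ran from -1.05 to 1.198.

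**Figure D2:**
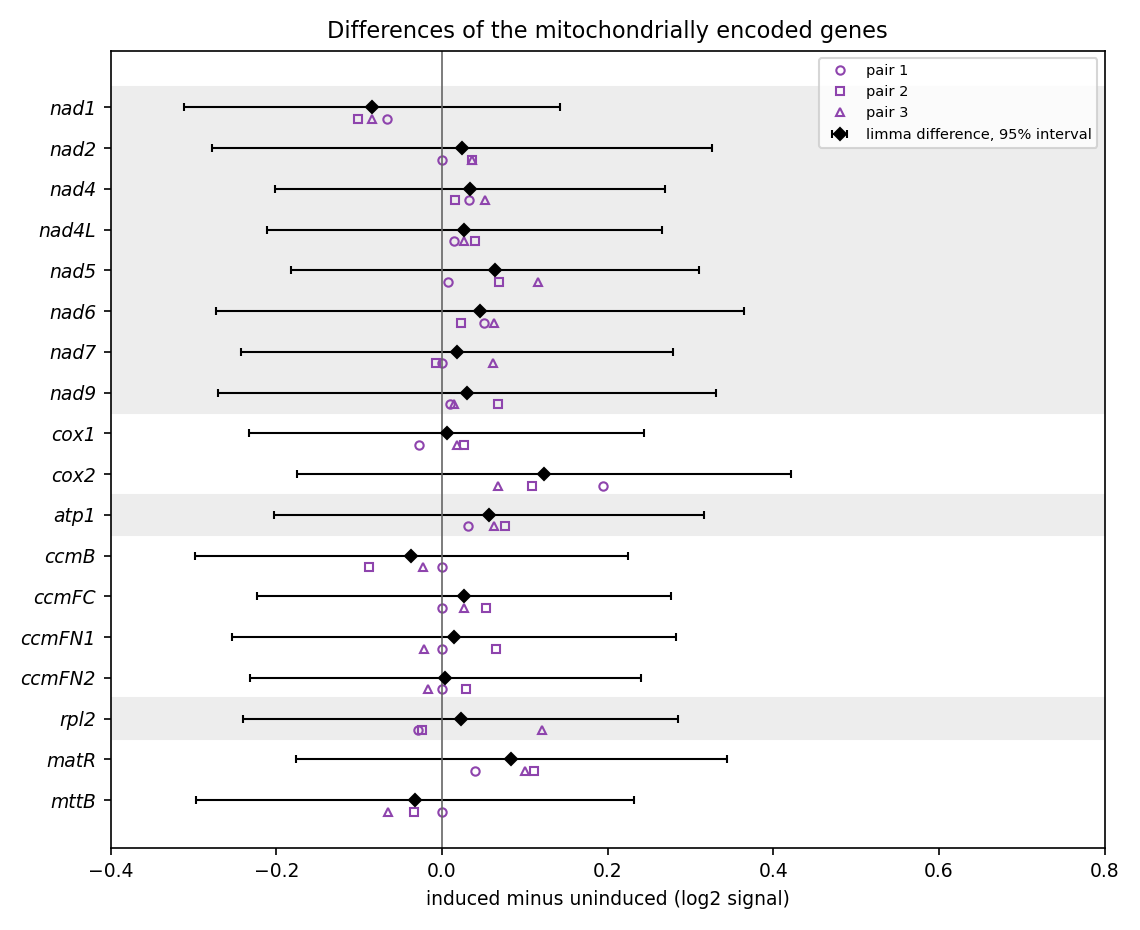
Induced minus uninduced difference in log2 signal (x axis) of each of the 18 genes, in the order of the plot by array. Black diamonds are limma differences with their 95% intervals and open purple marks are the 3 same-numbered pairs; each interval includes 0, and the diamonds lie between -0.08 and 0.12.

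The same-numbered pairs gave medians of 0.00, 0.03 and 0.03 over the 18 genes for replicates 1, 2 and 3. The matching of replicates 2 and 3 by number may be arbitrary. Across all rows their same-numbered arrays deviated together from the group means at r = 0.268 and 0.248, and those of unlike number at 0.244 and 0.260. Counts over all 3 pairs are therefore descriptive only. In pair 1, 8 genes lay higher and 7 held the same value in both arrays, and in pairs 2 and 3, 13 genes each lay higher. Over all rows 31.8% held the same value in both replicate 1 arrays, and in the highest decile 9.27%, against 38.9% of the 18 genes. The fit counts such equal values as separate measurements, and whether they are was not tested. This limits the differences and intervals of the 7 genes. Higher in all 3 pairs were 8 genes (nad4, nad4L, nad5, nad6, nad9, cox2, atp1 and matR), and nad1 was lower in all 3. Of all 38408 rows 5529 were higher and 6303 lower in all 3 pairs. In the highest decile of signal 776 of 3841 rows were higher and 954 lower in all 3. The genes share the arrays and each array's processing, so their number is no count of independent observations.

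Replicate 1 was also set against the other replicates. The mean of both replicate 1 arrays minus that of the other 4 arrays ran from -0.20 (nad2) to 0.22 (nad6), and in 12 of the 18 genes it was larger in size than the induced minus uninduced difference (66.7%, against 67.5% of all rows and 69.0% of the highest decile). In nad2, nad7, nad9, cox1, atp1, ccmFC, ccmFN2 and rpl2, both replicate 1 arrays lay below the other 4. In nad6, ccmB, ccmFN1 and mttB both lay above them. Over all rows both lay below in 19.3% and above in 28.01%. The median of the 18 genes was 12.58, 12.71 and 12.67 in induced replicates 1, 2 and 3 and 12.57, 12.65 and 12.60 in the uninduced ones, while the median of all rows was 5.95 in both replicate 1 arrays and 5.80 to 5.84 in the others. What sets the replicate 1 arrays apart was not tested.

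The genes nad1, nad2 and nad5 have 7, 3 and 2 rows of their own, and the rows of nad1 did not all give the same sign. The 7 rows of nad1 had means from 8.39 to 13.30. The row with the highest mean was the only row of nad1 in which the groups did not overlap. Of the other 6 rows 4 lay higher and 2 lower in the induced arrays, with differences from -0.01 to 0.13, and their median of 0.06 has the opposite sign to the -0.08 of the chosen row. The mean of all 7 rows gave 0.03. Which exon or piece of the transcript each row covers is not given in the sources used here. In nad2 the 3 rows differed by 0.01 to 0.03 and in nad5 both rows by 0.02 and 0.06, all upward.

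**Figure D3:**
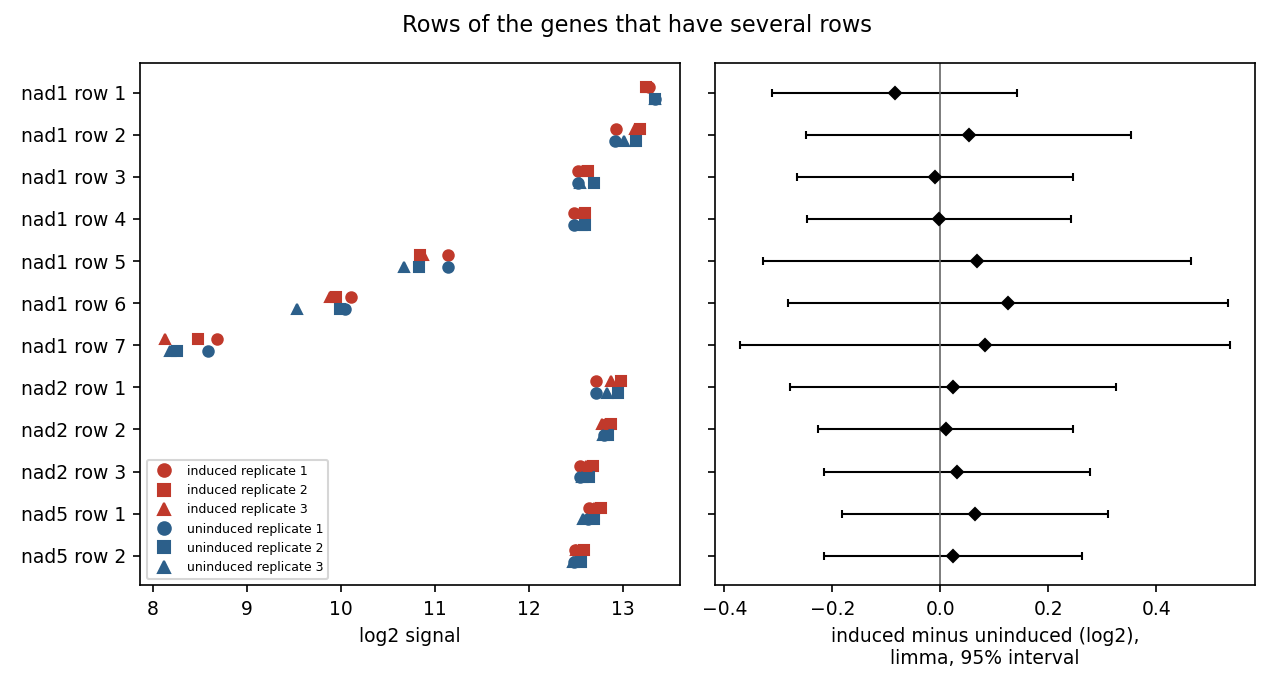
The 12 rows that name nad1, nad2 or nad5 alone, ordered within a gene by mean signal. The left panel shows the log2 signal on each array, red for induced and blue for uninduced, and the right panel the limma difference with its 95% interval; row 1 of nad1, the highest in signal, lies left of 0 while nad1 rows 2, 5, 6 and 7 lie right of it.

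Rows that name a mitochondrial gene together with other genes are not among the 18 and were described apart. The array has 27 of them, 26 of which name a nuclear gene as well, and they hold 21 distinct sets of values. They name 11 mitochondrial genes, of which 9 (cob, cox3, atp9, rpl5, rpl16, rps3, rps4, rps7 and rps12) have no row of their own. The differences of the 21 sets ran from -0.04 to 0.08, with a median of 0.03, and 0 passed in limma or at an unadjusted p under 0.05. For cob with AT2G07727, the row of higher signal gave 13.14, 13.37 and 13.30 against 13.22, 13.36 and 13.27. The row of rpl16 and rps3, the 1 row that names only mitochondrial genes, differed by -0.02 ± 0.12 (limma SE). Both of these rows overlapped between the groups. Of 42 nuclear loci with codes in the range of the chromosome 2 insertion, 29 were higher, where 18551 of all 38408 rows were. In pairs 1, 2 and 3, 11, 23 and 34 of the 42 were higher, and 3 were higher in all 3 pairs. How this split changes with normalization was not counted. The 42 loci had a median of 0.03 and ran from -0.14 to 0.23, and 0 passed at either threshold. RNA from the nuclear copies and from the mitochondrion cannot be told apart in rows that both could reach.

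Genes next to each other in the order of their starts on the mitochondrial genome did not share a direction throughout. The order ignores strand and distance, and it cannot place the separate pieces of nad1, nad2 and nad5. By start, the gene table puts mttB, rpl2, matR, nad5 and nad7 in a row among its protein-coding genes. Their differences were -0.03, 0.02, 0.08, 0.06 and 0.02. Next to each other in this order were also cox2 and ccmB, at 0.12 and -0.04. Whether any of these genes share a transcript was not tested.

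**Figure D4:**
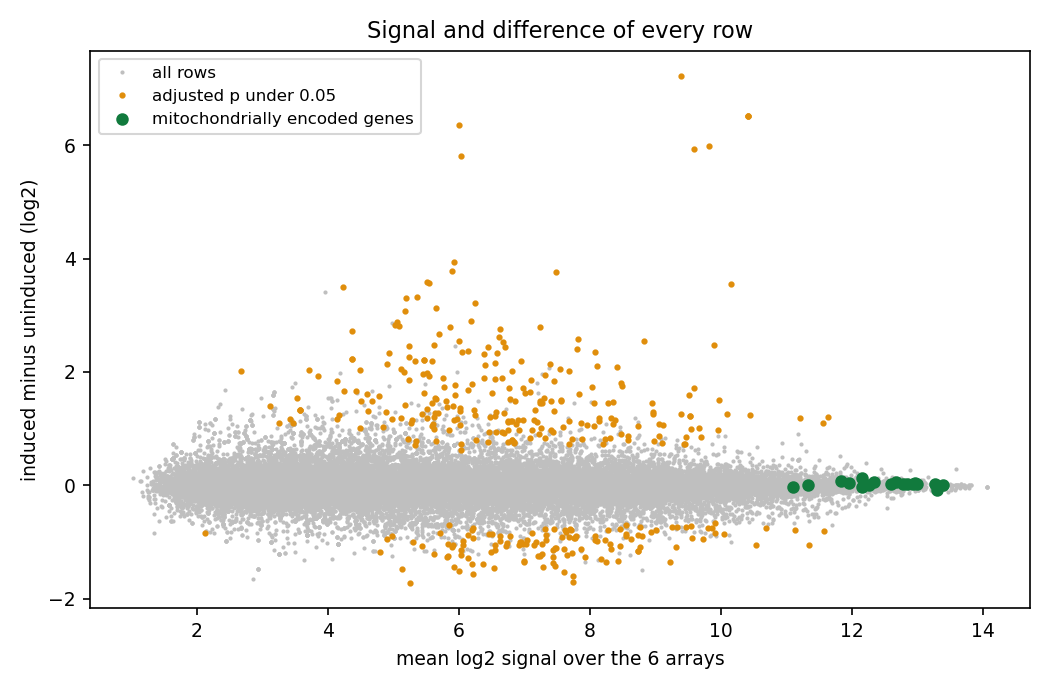
Mean log2 signal over the 6 arrays (x axis) against the induced minus uninduced log2 difference (y axis) of all 38408 rows in grey. Rows with a limma adjusted p under 0.05 are orange, and the 18 mitochondrially encoded genes, in green, lie at high signal and close to a difference of 0.

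The nuclear genome encodes most of the proteins that mitochondria use, and of 131 such genes on the lists used here 59 had a row of their own. In limma 0 of 59 passed, and 1 did at an unadjusted p under 0.05, against 8.48% of all rows. The groups did not overlap in 6.78% of the 59 genes, 2 upward and 2 downward, against 12.2% of all rows. The median of the 59 genes was 0.03, with 39 higher and 20 lower, where 18551 of all 38408 rows were higher. Both replicate 1 values were identical in 15 of the 59 genes. How the split of the 59 genes and those of the single lists change with normalization was not counted. Of 16 nuclear genes of complex I 15 lay higher, with a median of 0.05. In pairs 1, 2 and 3, 10, 9 and 14 of them lay higher, and 5 held equal values in pair 1. Only 4 of the 16 were higher in all 3 pairs. AT5G18800 had the smallest p of the 16, at 0.14 ± 0.11 (adjusted p = 0.975). All 3 induced arrays of AT5G18800, at 11.56, 11.39 and 11.36, lay above the uninduced ones, at 11.33, 11.26 and 11.29, as in 5.82% of all rows. AT1G49140 and AT1G79010, next in p, differed by 0.17 ± 0.17 and 0.10 ± 0.11, with overlapping groups. Of 10 nuclear genes of complex IV 9 lay higher, with a median of 0.06. In pairs 1, 2 and 3, 4, 8 and 8 of them lay higher, and 3 held equal values in pair 1. Only 3 of the 10 were higher in all 3 pairs. The smallest p among the 10 belonged to AT1G53030, at 0.20 ± 0.12 (adjusted p = 0.894), followed by AT5G57815, at 0.23 ± 0.16. The median was 0.01 for 4 genes of complex II, -0.0042 for 13 of complex III with cytochrome c, and 0.04 for 5 of complex V. The next genes are named by smallest p in these lists. SDH2-3, an iron-sulfur subunit of succinate dehydrogenase, differed by 0.11 ± 0.14, at a low mean signal of 3.04 (percentile 14.1 of all rows). AT5G13440 of the complex III list differed by -0.10 ± 0.10 and CYTC-2, a cytochrome c, by -0.11 ± 0.12. AT5G08680 of the complex V list differed by 0.11 ± 0.14.

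Of 12 genes listed as alternative respiratory enzymes 4 were measured, all alternative NAD(P)H dehydrogenases, which pass electrons to ubiquinone without pumping protons. Of these 4 genes 3 lay lower. NDB4 gave 10.15, 10.20 and 10.22 in the induced and 10.30, 10.50 and 10.47 in the uninduced arrays. NDB2 gave 10.64, 10.57 and 10.67 against 10.76, 10.70 and 10.77. In both genes the groups stood apart, induced below uninduced, as they did downward in 6.43% of all rows, and the differences of -0.24 ± 0.11 (adjusted p = 0.676) and -0.12 ± 0.10 (adjusted p = 0.99996) did not pass in limma. NDB3 differed by -0.20 ± 0.23, at a low mean signal of 2.95 (percentile 12.8 of all rows). Its values were 2.84, 2.87 and 2.84 in the induced and 2.88, 2.71 and 3.56 in the uninduced arrays, so its difference rests on uninduced replicate 3. The 1 measured gene on the list of mitochondrial stress, chaperones and proteases, AT2G21640, gave 8.18, 8.18 and 8.15 against 7.97, 7.91 and 7.84. Its groups stood apart with the induced above, as in 5.82% of all rows, and its difference of 0.26 ± 0.10 had an unadjusted p of 0.0352 and an adjusted p of 0.493.

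Of 26 genes of mitochondrial transcription and RNA processing 5 were measured, with a median of -0.09. OTP43, a pentatricopeptide repeat protein needed to splice nad1, differed by -0.22 ± 0.12 (adjusted p = 0.820). AT5G46920 differed by -0.09 ± 0.10 and AT5G14580 by -0.09 ± 0.14. Of the 5 genes 3, OTP43 and AT5G46920 among them, held the same value in both replicate 1 arrays, which limits their differences. OSB1, which binds mitochondrial DNA, was the 1 gene of DNA maintenance measured. It gave 9.12, 8.17 and 8.32 against 9.14, 8.28 and 8.63, a difference of -0.15 ± 0.32 (limma SE), with both replicate 1 arrays above the other 4.

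The genes of the plastid, the other organelle with a genome, had a median log2 signal of 12.15 and were set beside these genes as the other organelle-encoded group. Of 63 plastid genes with a row of their own 56 were higher, where 18551 of all 38408 rows were. How this split changes with normalization was not counted. The plastid genes had a median difference of 0.04 and ran from -0.02 to 0.21, and 0 passed in limma or at an unadjusted p under 0.05. The difference between the plastid and the mitochondrial genes was not tested.

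**Figure D5:**
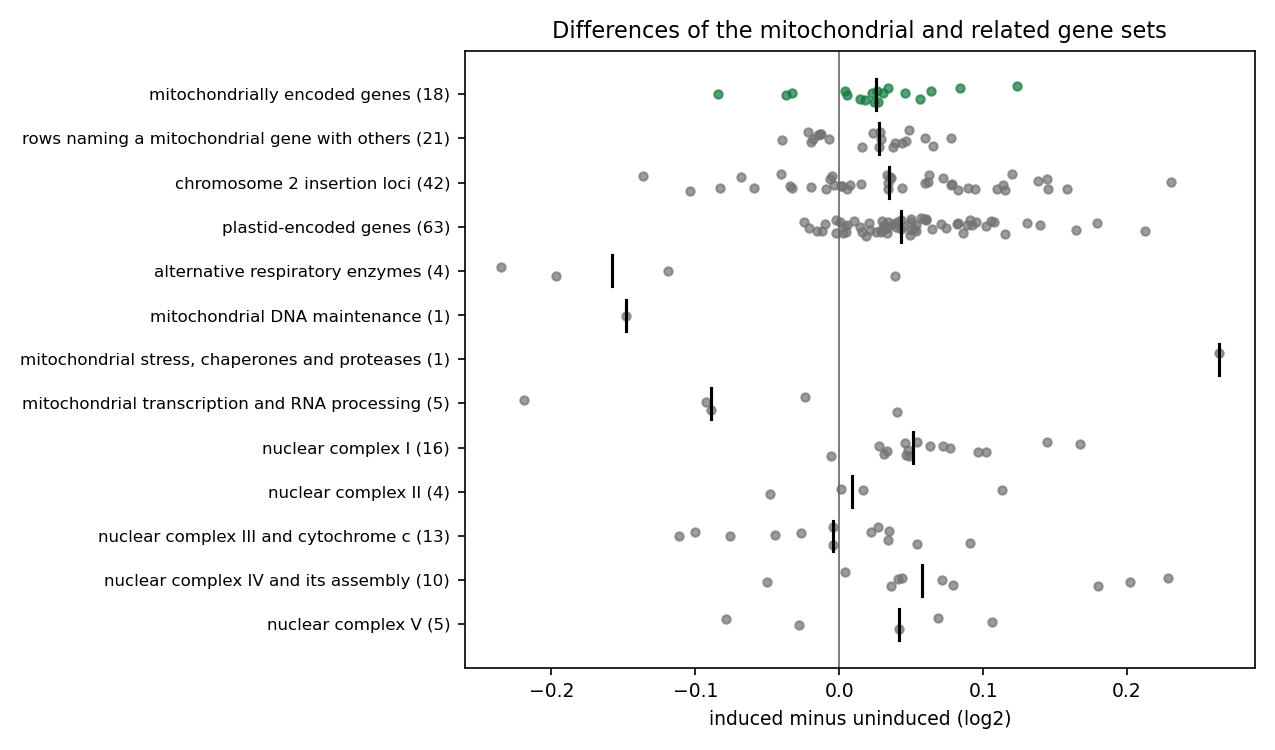
Induced minus uninduced log2 difference (x axis) of each gene or distinct row, with the number of genes or rows of each set in brackets and a black bar at its median. The 18 mitochondrially encoded genes, in green, have a median of 0.03, and no gene or row shown passed an adjusted p of 0.05.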

How the data were processed

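RNA from 6 samples was measured on 1-colour Affymetrix arrays, 1 array per sample. The deposited values are log2 signals of 38408 rows, and the submitters' processing notes name Affymetrix Expression Console 1.3 as the software the authors used. The summarization, background correction and normalization are not given in the sources used here. No coordinates are printed, because no genome build is named. Row names came from the platform annotation, which can be old, and mitochondrial genes from a RefSeq gene table used for names and neighbours only.

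Groups were taken from the sample titles. All rows were fitted in 1 model in limma 3.58.1 (R 4.3.3), induced minus uninduced, with no block, no filter and equal weights. Values of p were moderated with eBayes and adjusted by Benjamini-Hochberg over all rows, with a threshold of 0.05. An exact permutation test of 3 against 3 arrays cannot go below a two-sided p of 0.10, so none was run. Intervals are at 95%, and the number of arrays limits their precision. The fit was also run on simulated data with independent normal values. These held neither the replicate 1 offset nor the equal replicate 1 values of the real arrays, so the run does not cover either. Same-numbered arrays deviated together from their group means, at r = 0.633, 0.268 and 0.248 across rows, so the numbers were treated as pairs in an alternative with a replicate block. In replicates 2 and 3, however, arrays of unlike number deviated together about as much, at r = 0.244 and 0.260.

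The members and gene lists were chosen with earlier results of these data known. Every mitochondrial gene with a row of its own is named. Of the nuclear lists any gene past the threshold and up to 3 per list with the smallest p could be named. Loci whose array name is a locus code are given by that code. Alternatives covered normalization, filters, the variance prior, array weights, blocks, the rows used and single arrays left out. The mitochondrial genes atp4, atp6, atp8, ccmC and nad3 and the mitochondrial RNA genes were not analysed here.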

Additional observations from a re-analysis of the deposited data

How the results depend on the processing

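None of the 18 mitochondrially encoded genes passed the threshold in the 17 alternative fits, nor at an adjusted p under 0.10, although the calls over all rows ran from 48 (without uninduced replicate 3) to 1106 (replicate 1 against the rest as a block), against 369 as reported. With 1 array left out the counts over all rows were 48 to 167, and the other counts outside 1.5 times the reported one were 242 (replicate block), 80 (replicates 2 and 3 only), 691 and 827 (filters at the 25th percentile and at the median), 706 (trended and robust prior) and 977 (array weights). Single-gene differences stayed between -0.10 and 0.20, and the lowest adjusted p was 0.527 (cox2, replicate block). The replicate block leaves each difference as reported (median 0.03) and changed no call of the 18 genes, the nuclear lists, the insertion loci or the plastid genes. The signs are not stable: 33 of 306 combinations of gene and alternative changed sign, in 12 of the 18 genes.

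With 1 array left out, the median of the 18 genes ran from -0.0019 to 0.051, that of complex I from -0.0063 to 0.056, complex IV 0.024 to 0.10, cytochrome c maturation -0.0063 to 0.0053, rpl2 -0.0032 to 0.072, complex V 0.009 to 0.099, and matR with mttB -0.0019 to 0.057. The median of the 18 genes, 0.025 as reported, was 0.0072 after quantile normalization and 0.010 after median subtraction. Quantile normalization gave complex I a median of 0.0067, and median subtraction gave cytochrome c maturation -0.0060. For matR with mttB, median subtraction gave 0.010, and leaving out genes with equal replicate 1 values gave 0.084, since mttB is then left out. Median subtraction turned ccmFN1 (-0.00078), ccmFN2 (-0.011) and cox1 (-0.0095), and quantile normalization turned cox1 (-0.0090), nad4L (-0.0027), nad7 (-0.0085) and rpl2 (-0.0011). The mean of all rows turned nad1 to 0.033. Differences that changed sign when 1 array was left out ran over these ranges: ccmFC from -0.0050 to 0.071, ccmFN1 from -0.026 to 0.067, ccmFN2 from -0.019 to 0.029, cox1 from -0.024 to 0.033, mttB from -0.085 to 0.016, nad2 from -0.039 to 0.096, nad4L from -0.0024 to 0.049, nad6 from -0.028 to 0.12, nad7 from -0.021 to 0.066, nad9 from -0.040 to 0.097, rpl2 from -0.0032 to 0.072. The causes were not tested.

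The design has 3 arrays per group. The normalization is unstated, and a shift shared by all genes on an array that it removed could not be seen. Shifts left in the deposited values can be seen in the array medians, but their origin was not tested.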
